A study of Mus musculus with 20 samples.

Results

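The genes described here encode the hormones of the anterior and intermediate pituitary, together with the pituitary receptor Ghrhr and the transcription factor Pou1f1, and they were followed across 20 mouse brain arrays. The members were all probe sets whose symbol in the platform annotation was Gh, Prl, Pomc, Lhb, Tshb, Cga, Fshb, Ghrhr or Pou1f1. This gave 12 of the 45037 probe sets that were not controls, and they covered 8 of the 9 genes: 4 probe sets for Gh, 2 for Pomc and 1 each for Prl, Lhb, Tshb, Cga, Fshb and Ghrhr. Pou1f1 had no probe set under its symbol and was not analysed here. RNA came from whole brains of C57BL/6J mice in 4 groups of 5, with 1 Affymetrix array per brain. Young mice were 8 weeks old and aged mice 2 years old, and at each age 5 were wild type and 5 carried alpha7-/-, which removes the alpha7 subunit from nicotinic receptors for acetylcholine, written alpha7-deficient below. The sources used here do not give the allele, the sex of the animals or whether the pituitary was left on the brain at dissection. Values are log2 of the authors' signal intensity, so a difference of 1 is a doubling.

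The anterior pituitary is a gland below the hypothalamus whose endocrine cell types each make a different hormone. Somatotrophs make growth hormone (Gh), lactotrophs prolactin (Prl), corticotrophs proopiomelanocortin (Pomc), thyrotrophs thyrotropin and gonadotrophs luteinising and follicle-stimulating hormone. The last hormones are dimers of the shared alpha subunit Cga with a beta subunit of their own, Tshb, Lhb or Fshb. Melanotrophs of the intermediate lobe also make Pomc, as do neurons of the hypothalamic arcuate nucleus, so Pomc is a transcript of the brain as well. Pou1f1, also called PIT1, is the factor that somatotrophs, lactotrophs and thyrotrophs depend on, and Ghrhr is the receptor through which the hypothalamus drives growth hormone.

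The upstream sequences of a lactotroph, a thyrotroph, a corticotroph and a gonadotroph gene are shown because the levels of these 4 genes separated the arrays described below. They are the 250 bases before the transcription start in RefSeq (GRCm38.p6), written along the strand of the gene, and capitals mark a match to 1 of 4 motifs on either strand. Prl lies at chr13:27057320-27057569 on the plus strand, Tshb at chr3:102782715-102782964 on the minus strand, Pomc at chr12:3954695-3954944 on the plus strand and Lhb at chr7:45420696-45420945 on the plus strand.
Prl: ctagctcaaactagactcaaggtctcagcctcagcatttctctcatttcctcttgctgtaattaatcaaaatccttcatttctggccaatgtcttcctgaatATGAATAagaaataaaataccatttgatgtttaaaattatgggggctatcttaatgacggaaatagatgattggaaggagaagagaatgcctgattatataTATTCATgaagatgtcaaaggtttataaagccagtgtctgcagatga
Tshb: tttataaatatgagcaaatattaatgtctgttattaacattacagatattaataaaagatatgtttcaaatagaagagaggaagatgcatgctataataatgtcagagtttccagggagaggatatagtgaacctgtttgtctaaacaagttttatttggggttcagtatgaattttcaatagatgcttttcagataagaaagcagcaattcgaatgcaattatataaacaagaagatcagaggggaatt
Pomc: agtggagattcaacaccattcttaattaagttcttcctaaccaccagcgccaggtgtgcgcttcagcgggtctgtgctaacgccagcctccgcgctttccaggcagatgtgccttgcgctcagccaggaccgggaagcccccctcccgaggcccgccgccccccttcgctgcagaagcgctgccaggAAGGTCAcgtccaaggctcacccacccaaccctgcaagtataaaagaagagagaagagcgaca
Lhb: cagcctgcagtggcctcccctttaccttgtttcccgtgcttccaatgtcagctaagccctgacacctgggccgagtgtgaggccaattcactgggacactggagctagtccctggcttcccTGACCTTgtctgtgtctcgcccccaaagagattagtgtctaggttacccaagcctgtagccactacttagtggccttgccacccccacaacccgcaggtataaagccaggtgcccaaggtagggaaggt

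The motifs were searched in windows of 300 bases, from 250 before to 50 after the start. The Pou1f1 core motif TATNCAT occurred 2 times in the Prl window, both times before the start, and in 8.84% of 32851 mouse promoters of that length. The motif AAGGTCA, bound by the gonadotroph factor Nr5a1 and other nuclear receptors, occurred 1 time each in the Pomc and Lhb windows and in 4.72% of all promoters. TAATCC (the pituitary factor Pitx1) and TCACACC (the corticotroph factor Tbx19) were held by 7.06% and 3.98% of promoters and by none of the member windows, and the Tshb, Cga and Fshb windows held none of the 4 motifs. A promoter of Pou1f1 itself held TATNCAT 2 times. Windows were given for 7 of the 9 genes, and those of Gh and Ghrhr were not used here. A match describes the letters of a window and is neither a binding site nor a cause.

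The arrays were scaled by the authors to a common level, and their median signals lay between 61.3 and 78.9. A gene entered the tests when its best probe set reached a mean log2 of 5.45, a signal of 43.6. This held for 13389 genes and for 6 members, namely Gh (probe set 1460310_a_at), Prl (1429287_a_at), Pomc (1433800_a_at), Lhb (1450795_at), Tshb (1450371_at) and Ghrhr (1427611_at). Gh passed only through its 2 highest arrays, since its mean over the other 18 was 5.35. Cga (1418549_at) and Fshb (1450996_at) stayed below, at means of 4.36 and 2.67. Without detection calls, signals under that level are not shown to be above background, so differences among them are described and not interpreted. Markers of brain regions were measured, with all 8 cerebellar markers and all 6 striatal markers that had a probe set reaching the level. Nothing in the labels says that the mice came from separate litters, so p-values measure the spread between these brains.

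Before any comparison of groups, 2 arrays stood apart from the other 18 for the pituitary hormones. They were young wild-type replicate 1 and aged wild-type replicate 3, of different ages and the same genotype. On both, Gh, Prl, Pomc, Lhb, Tshb and Cga lay above the highest of the other 18 arrays. The 2 arrays are those highest in Gh, so its place among the 6 is given by their choice. Of all genes tested, 0.291% lay above the other 18 on both arrays, a share that is set beside the members only as background. Fshb was above all others on the aged array only, and Ghrhr did not separate the arrays.

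Gh, the somatotroph hormone, had the widest range. In young wild-type brains its log2 signals were 13.57, 6.21, 8.87, 6.88 and 8.19 on replicates 1 to 5, and in aged wild-type brains 5.13, 5.15, 13.83, 4.89 and 5.19. In young alpha7-deficient brains they were 3.41, 5.48, 6.32, 3.12 and 4.78, and in aged alpha7-deficient brains 4.95, 3.74, 3.46, 4.83 and 5.66. The lower of the 2 high arrays exceeded the highest of the other 18, young wild-type replicate 3, by 4.70 on the log2 scale, a ratio of 26.0. Young wild-type replicates 3 and 5 formed a middle level, and 11 of the 20 arrays lay under the signal level set for testing, where their order cannot be read. On the 2 high arrays all 4 Gh probe sets gave log2 signals between 13.36 and 14.22, and no other array passed 9.05 for any of them. Agreement was poorer where the signal was low, where pairs of Gh probe sets differed by up to 4.97 on 1 array. As these probe sets detect 1 gene they are not independent measurements.

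Ghrhr, the somatotroph receptor for growth hormone-releasing hormone, did not follow Gh. Its log2 signals ran from 3.88 to 6.77 over the 20 arrays, and 12 of them reached the testing level. Young wild-type replicate 1 was highest at 6.77, but aged wild-type replicate 3 stood at 6.07, below young alpha7-deficient replicate 1 at 6.58. All 4 groups overlapped, with medians of 6.22 in young wild type, 5.26 in aged wild type, 6.28 in young alpha7-deficient and 5.96 in aged alpha7-deficient brains.

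Prl, the lactotroph hormone, was high on the same 2 arrays in the other order. Its log2 signals were 13.95, 7.31, 9.34, 6.78 and 5.62 in young wild type and 4.86, 6.01, 11.86, 3.94 and 4.97 in aged wild type. They were 4.01, 6.25, 6.71, 5.56 and 3.39 in young alpha7-deficient and 6.04, 4.38, 3.52, 5.35 and 5.49 in aged alpha7-deficient brains. Both high arrays were at least 5.74-fold above the next, again young wild-type replicate 3. Between the 2, Prl was 4.26-fold higher in the young than in the aged brain, whereas Gh differed by a ratio of 1.19. Young wild-type replicate 5, at the middle level for Gh, was not raised for Prl.

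Pomc, the precursor of corticotropin and of melanocyte-stimulating hormone, started from a higher floor. In young wild-type brains it was 10.78, 7.43, 9.17, 8.13 and 7.50, and in aged wild-type brains 7.41, 7.42, 11.40, 7.54 and 7.61. In alpha7-deficient brains its probe set ran from 7.20 to 7.93 at 8 weeks and from 7.12 to 7.99 at 2 years, so that every array passed the testing level. The 2 high arrays were 3.06-fold or more above the next, young wild-type replicate 3. Without those 3 arrays Pomc stayed between 7.12 and 8.13. The second Pomc probe set gave 10.71 and 11.24 on the 2 high arrays, within 0.160 of the first, and lower, more scattered signals elsewhere.

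**Figure D1:**
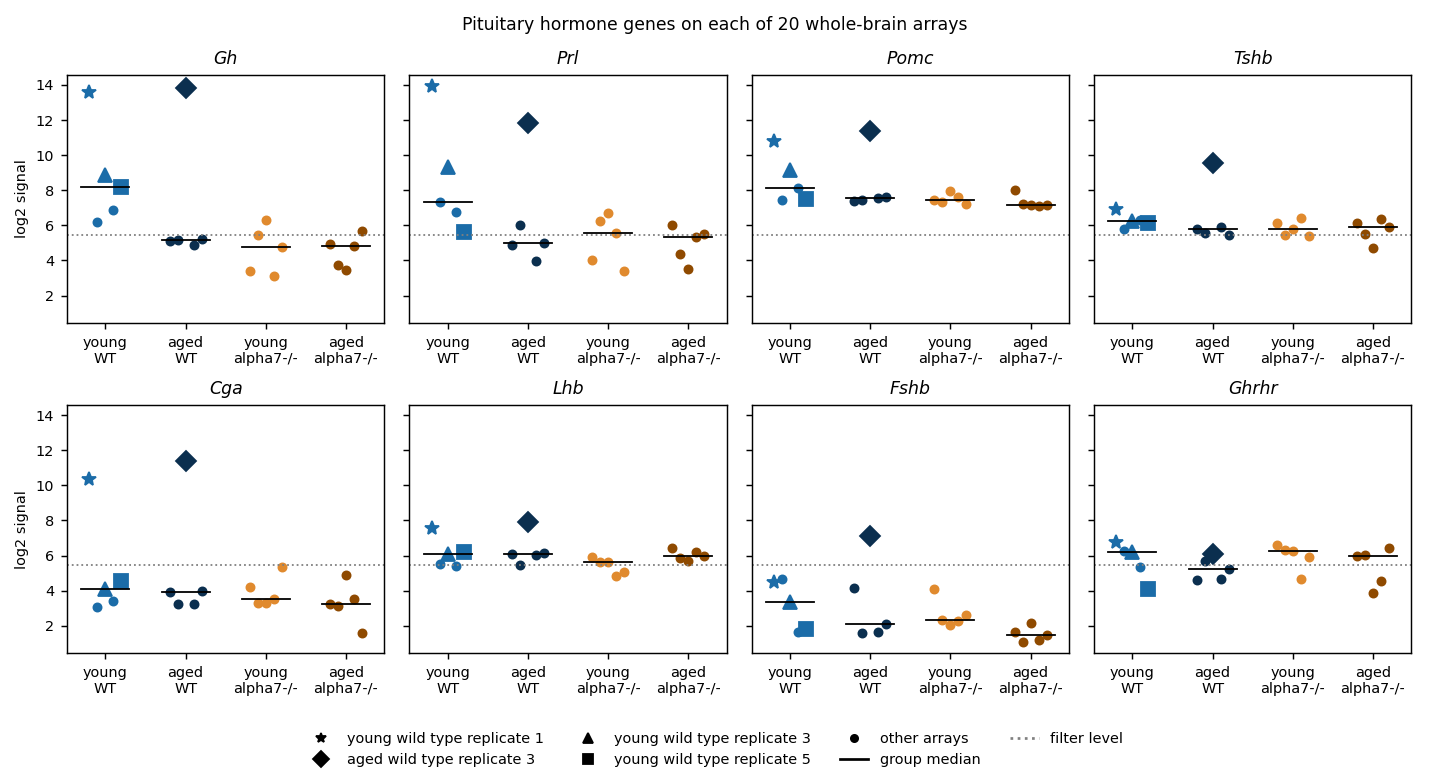
Log2 signal (vertical axis) of the 8 measured members on each of the 20 arrays, 1 panel per gene, in the 4 groups of 5 on the horizontal axis. Black bars are group medians and the dotted line is the signal level set for testing, 5.45. Young wild-type replicate 1 (star) and aged wild-type replicate 3 (diamond) lie above all other arrays for 6 genes, by 4.70 for Gh and 5.00 for Cga.

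Cga, the alpha subunit shared by the glycoprotein hormones, split the arrays widely although its mean kept it out of the tests. It read 10.36 on young wild-type replicate 1 and 11.37 on aged wild-type replicate 3. No other array exceeded 5.36, and all of those 18 lay under the testing level. The gap of 5.00 was a ratio of 32.0 to a signal not shown to be above background.

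Of the beta subunits, Tshb and Fshb differed between the 2 arrays more than Cga did, and Lhb less. Tshb, the thyrotropin beta subunit, was 6.95, 5.77, 6.23, 6.30 and 6.13 in young wild type and 5.82, 5.58, 9.56, 5.89 and 5.45 in aged wild type. In alpha7-deficient brains it lay between 5.41 and 6.44 at 8 weeks and between 4.68 and 6.36 at 2 years. Aged wild-type replicate 3 was thus 6.10-fold above young wild-type replicate 1, which itself lay only 0.51 above the next array. Lhb, the luteinising hormone beta subunit, was 7.57 on the young and 7.91 on the aged array, against 4.82 to 6.44 on the other 18, and so rose to like levels on both. Fshb, the follicle-stimulating hormone beta subunit, reached 7.09 on aged wild-type replicate 3 and was under the testing level on the other 19, including young wild-type replicate 1 at 4.51.

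The 2 arrays therefore differed in make-up. From young to aged, Tshb was higher by 2.61, Cga by 1.01, Pomc by 0.62, Lhb by 0.35 and Gh by 0.25, and Prl differed by -2.09. Fshb was measured on the aged array alone, since its young signal lay under the testing level. With 1 array on each side these differences have no replicate check. Xist, the RNA that coats the inactive X of female cells, was 10.50 on the young and 6.38 on the aged array. The 2 arrays thus lie on opposite sides of the gap in Xist, and its part in the differences was not tested. Fewer cells of a type and less RNA per cell cannot be told apart in RNA of a whole brain.

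**Figure D2:**
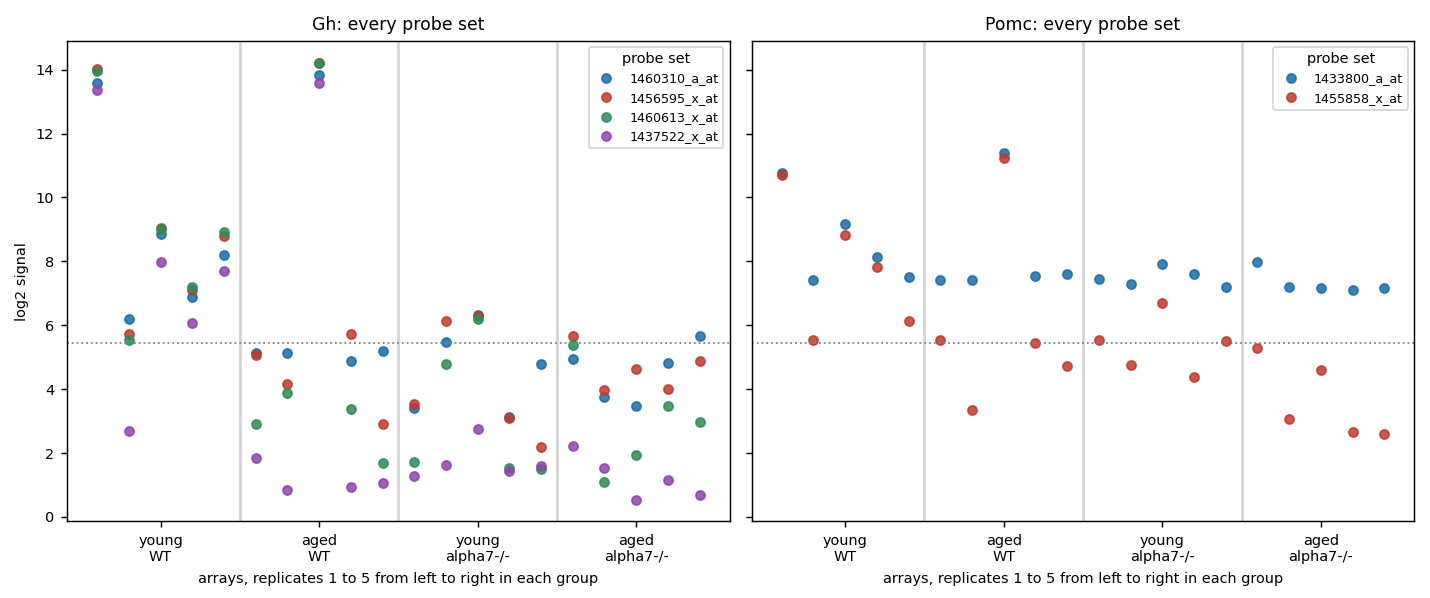
Log2 signal (vertical axis) of all 4 probe sets of Gh (left) and both of Pomc (right) on the 20 arrays, ordered by group and replicate on the horizontal axis. The dotted line is the testing level of 5.45. The probe sets of a gene coincide on young wild-type replicate 1 and aged wild-type replicate 3 and spread apart where the signal is low.

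Below the 2 arrays, single members were raised on others without the full set. An array was said to stand high for a gene at 2 or more above that gene's median of 20 arrays. By this measure young wild-type replicate 1 stood high for 5 members and aged wild-type replicate 3 for 6. Young wild-type replicate 3 stood high for Gh and Prl, young wild-type replicate 5 for Gh, and young replicate 2 and aged replicate 1 of the wild type for Fshb, at signals under the testing level. No alpha7-deficient array stood high by the probe set that stood for each gene, and the 4 arrays high for Gh were wild type, 3 of them young. By the Gh probe set 1460613_x_at, whose mean lay under the testing level, 6 arrays stood high, among them young alpha7-deficient replicate 3 at 6.19.

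Whether hormone genes moved together on the remaining arrays could not be shown. The arrays fall into separate clusters for these genes, so no correlation between members over all 20 is tested. Over the other 18, after removing group means, 0 of 28 pairs of members passed a permutation test with Benjamini-Hochberg adjustment. Pearson's r was 0.52 for Gh with Prl (p = 0.0804, adjusted 0.382; Spearman's rho 0.52, p = 0.0756, adjusted 0.416). It was 0.54 without young alpha7-deficient replicates 3 and 4, the 2 arrays farthest out for Gh once group means were removed. Young wild-type replicates 3 and 5, at the middle level for Gh, were kept in that value. For Prl with Pomc r was 0.64 (p = 0.0195, adjusted 0.372; rho 0.49, p = 0.0827, adjusted 0.416) and fell to 0.47 without young wild-type replicate 3 and young alpha7-deficient replicate 5. Prl with Cga gave r = -0.56 (p = 0.0266, adjusted 0.372; rho -0.56, p = 0.0363, adjusted 0.416), with all 18 Cga signals under the testing level, and -0.60 without the same 2 arrays.

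**Figure D3:**
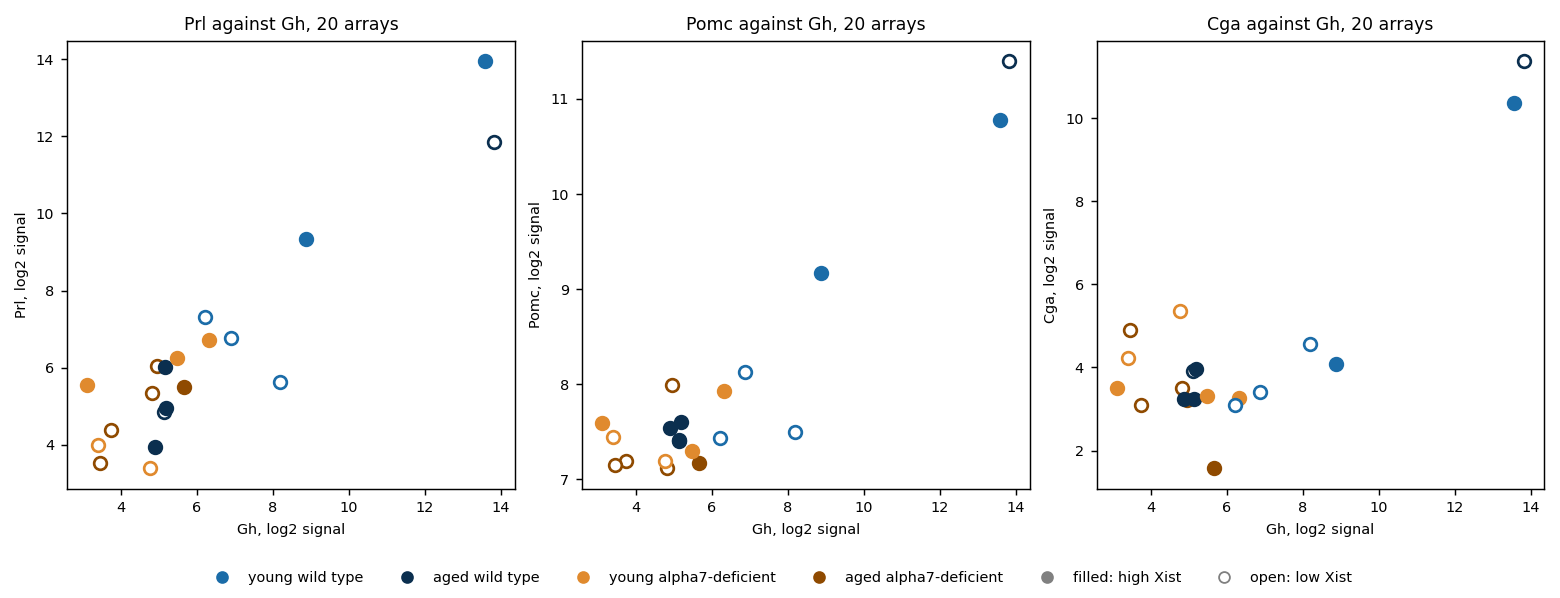
Log2 signal of Prl, Pomc and Cga (vertical axes) against Gh (horizontal axis), 1 point per array, coloured by group, and filled where Xist is high (9 arrays) or open where it is low (11 arrays). Young wild-type replicate 1 (filled) and aged wild-type replicate 3 (open) lie at the upper right of every panel, and young wild-type replicate 3 lies between them and the rest for Prl and Pomc but not for Cga.

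The hormone genes were nearly the whole of what the 2 arrays had in common at this size. Of 13389 genes tested, 6 stood high on young wild-type replicate 1 (0.0448%), 4 on aged wild-type replicate 3 (0.0299%) and 3 on both (0.0224%). The 3 were Gh, Prl and Pomc. Among the other 189 pairs of arrays the median number of shared high genes was 0 and the highest 5. Without the filter on means, 10 of 34945 probe sets with 1 symbol were high on both arrays, above all other 18 and at the testing level on both (0.0286%). They were the 4 of Gh, the 2 of Pomc, those of Prl and Cga, 1 of Dlk1 and 1 of Slc26a10, the last 2 named after their values were seen. Dlk1 encodes a membrane protein of the Notch ligand family that pituitary endocrine cells express. Its probe set 1449939_s_at read 9.53 on the young and 10.42 on the aged array against at most 7.91 elsewhere, while its other probe set, 1442724_at, did not separate them (7.88 and 8.04 against up to 8.54). Slc26a10 read 5.96 and 5.65 against at most 4.99.

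Other genes of pituitary cells and of their neighbours were taken from 16 lists. Both arrays exceeded all others for 1 probe set each of Six6, Esr1, Chgb, Pappa2 and Ecel1 besides Dlk1, where 160 of 34945 probe sets (0.458%) did so. Esr1, the oestrogen receptor of lactotrophs and gonadotrophs among other cells, read 7.44 and 7.31 against at most 7.10. Chgb, a secretory granule protein of endocrine cells and neurons, read 12.84 and 12.66 against at most 12.63. Pappa2, Ecel1 and Six6 exceeded the next array by 0.04, 0.02 and 0.57, and Six6, a factor of pituitary and hypothalamic development, stayed under the testing level. Among the 13 pituitary transcription factors 11 had a probe set and 5 reached that level. For each list, the log2 signal of a tested gene minus its median of 20 arrays was averaged over the genes. For the transcription factors this mean was -0.13 on the young and 0.075 on the aged array, within the -0.19 to 0.21 of the other 18. For the receptors of releasing and inhibiting factors it was 0.20 and 0.044 against -0.33 to 0.085, so that the young array lay above the range and the aged array inside it. In the lists for neighbouring tissue both arrays lay within the range of the others. The choroid plexus means were 0.0074 and -0.059 against -0.55 to 0.15, and the meninges means 0.20 and -0.022 against -0.76 to 0.41. The posterior pituitary and pituicyte means were -0.043 and -0.057 against -0.29 to 0.18, and the hypothalamic neuropeptide means -0.0091 and -0.0024 against -0.22 to 0.61. Single genes of these 4 lists did exceed all others on 1 array, namely the choroid plexus channel gene Clic6 on the young array (9.05 against at most 8.72) and the fibroblast proteoglycan Lum on the aged array, and none did so on both. In the other direction the neuropeptide gene Oxt lay just below all others on both arrays (9.47 and 9.43 against at least 9.49). Measures of RNA quality did not set the arrays apart. The log2 ratio of the Gapdh 3' to 5' control probe sets was 2.29 and 2.62 against 2.11 to 3.42, and that of beta-actin 0.79 and 1.03 against 0.70 to 1.88. What the animal numbers in the labels stand for is not given, and their part was not tested.

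**Figure D4:**
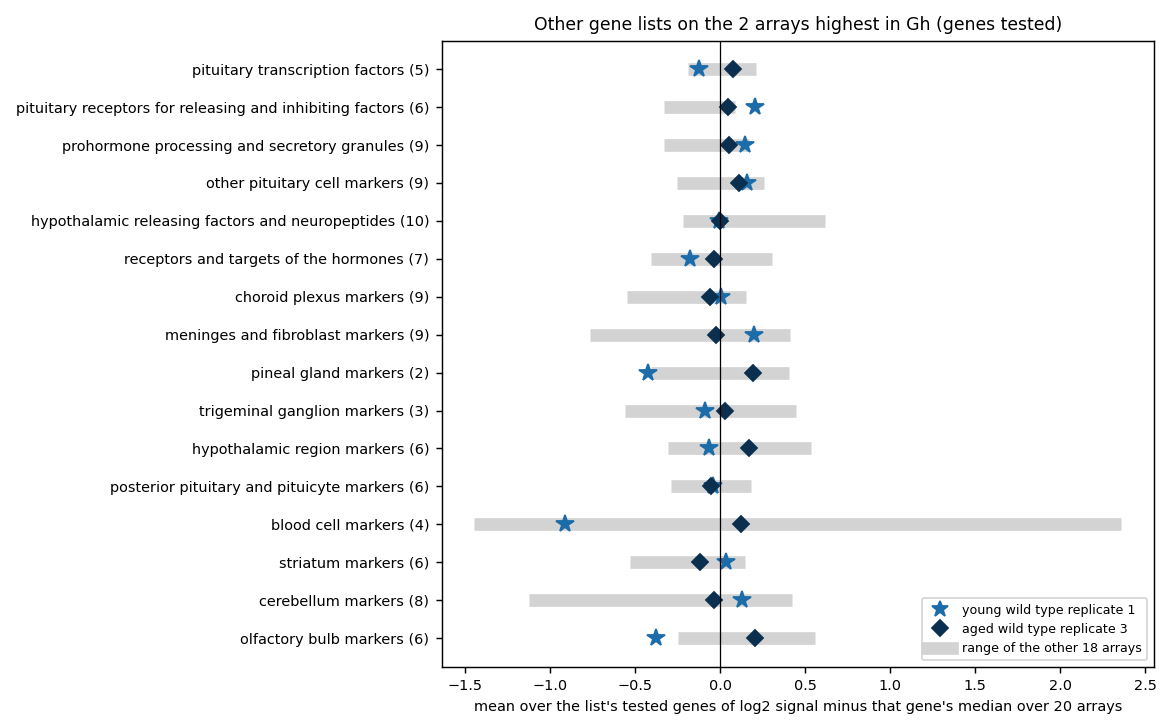
Mean over the tested genes of each of 16 lists (number in brackets) of the log2 signal minus that gene's median of 20 arrays (horizontal axis), for young wild-type replicate 1 (star), aged wild-type replicate 3 (diamond) and the range of the other 18 arrays (grey bar). The aged array lies inside every range, and the young array lies above it for the receptors of releasing and inhibiting factors and below it for pineal and olfactory bulb markers.

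The genes whose pattern over the 20 arrays was most like that of Gh were other members. After removing group means, Pomc, Prl, Lhb and Tshb ranked 1, 2, 3 and 5 of 13389 by Pearson's r to Gh, and Ghrhr ranked 208. Among genes that are no members the 12 most like Gh were Mest, Pip5k1a, Nucb2, St6galnac3, Prr14, Acp2, Usp5, Stau1, Kirrel, Wfdc15a, Klhdc8b and Dok1. Mest, an imprinted gene of the hydrolase fold family, came first with r = 0.79, and it also came first for Pomc with r = 0.84. It read 9.20 on the young and 8.82 on the aged high array, the latter below the 8.94 of another array, so that its range was far narrower than that of Gh. Over the 18 other arrays its r to Gh was 0.49. Klhdc8b, Zfp956, Stau1, Banp and Taf1a completed the 6 most like Pomc. These values describe a likeness over 20 arrays, 2 of them far from the rest, and have no test.

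The comparison of genotypes asks what loss of the alpha7 subunit changes at each age. Among wild types Gh averaged 8.75 ± 2.89 when young and 6.84 ± 3.91 when aged, against 4.62 ± 1.36 and 4.53 ± 0.91 among alpha7-deficient mice (SD, n = 5 each). Prl averaged 8.60 ± 3.28 and 6.33 ± 3.18 against 5.18 ± 1.43 and 4.96 ± 1.0, and Pomc 8.60 ± 1.40 and 8.27 ± 1.75 against 7.49 ± 0.29 and 7.33 ± 0.37. Group means of these genes are moved by the high arrays. The medians for Gh were 8.19, 5.15, 4.78 and 4.83 in the same order of groups. They lay closer than the means between genotypes at each age, but farther apart between young and aged wild type.

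At 8 weeks Gh was lower in alpha7-deficient than in wild-type brains, with a difference of -4.13 (SE 1.38, limma adjusted p = 0.925). The groups overlapped at 1 array, with 4 of 5 wild-type brains above the highest alpha7-deficient brain at 6.32. An exact permutation test of Gh alone gave p = 0.0159, two-sided and unadjusted, where 0.00794 is the smallest that 5 against 5 can give. It is 1 of 48 such tests over 8 members and 6 comparisons. Gh entered the limma tests only through its 2 high arrays, both wild type, and its alpha7-deficient mean of 4.62 lay under the testing level. Its p-values for genotype are therefore descriptions. Prl differed by -3.41 (SE 1.32, limma adjusted p = 0.925, exact p = 0.0397), also with 4 of 5 wild-type brains above all alpha7-deficient brains. Pomc differed by -1.11 (SE 0.618, exact p = 0.0873), Lhb by -0.74, Tshb by -0.43 and Ghrhr by 0.21. The second Pomc probe set, 1455858_x_at, differed by -2.43 in a limma fit without the filter (unadjusted p = 0.0364, adjusted 0.993). Its alpha7-deficient mean of 5.38 lay under the testing level. limma called 0 of the 6 members, against 0.00747% of all genes (1 of 13389, Chrna7), and 2 members and 5.19% of all genes had an unadjusted p under 0.05. Without young wild-type replicate 1 the differences were -2.92 for Gh, -2.08 for Prl and -0.57 for Pomc, and without young wild-type replicates 3 and 5 as well -1.93, -1.86 and -0.29.

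At 2 years the differences between genotypes rested on aged wild-type replicate 3. Gh differed by -2.31 (SE 1.38, adjusted p = 0.818, exact p = 0.167), Prl by -1.37, Pomc by -0.95, Tshb by -0.74, Lhb by -0.30 and Ghrhr by 0.12. Without this array Gh differed by -0.56, Pomc by -0.17, Prl by 0.012, Tshb by 0.036 and Lhb by 0.10, the last 3 with the sign turned. The share of genes called was again 0.00747%. By the probe set that stood for each gene 0 of the 6 tested members passed in limma. This also held at an unadjusted p under 0.05, which 5.8% of all genes had. Fshb and Cga, outside the tests, differed by -1.81 (unadjusted p = 0.0435, adjusted 0.809) and -1.88 (unadjusted p = 0.172, adjusted 0.824) in a limma fit without the filter. All group means of both genes lay under the testing level, so these differences are descriptions. The second Pomc probe set, 1455858_x_at, differed by -2.41 in a limma fit without the filter (unadjusted p = 0.0377, adjusted 0.809). Its aged alpha7-deficient mean of 3.65 lay under the testing level, so this difference is a description.

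Averaged over ages, 5 of 6 members were lower and 1 was higher in alpha7-deficient brains, with a median difference of -0.81 beside -0.0012 for all genes. These 5 are raised together by the same 2 wild-type arrays, so their directions and the median are not separate results. limma called 0 of 6 members beside 0.00747% of all genes. Gh differed by -3.22 (SE 0.977, adjusted p = 0.999; permutation p = 0.00332 over 10 against 10 arrays), Prl by -2.39 (SE 0.931; permutation p = 0.0351) and Pomc by -1.03 (SE 0.437; permutation p = 0.0285). These 3 also had an unadjusted limma p under 0.05, as had 3.5% of all genes. The other Gh probe sets, fitted in limma without the filter, differed by -4.13 (1437522_x_at), -4.01 (1460613_x_at) and -3.23 (1456595_x_at), each with adjusted p = 0.999. Their alpha7-deficient means lay under the testing level at both ages. The second Pomc probe set differed by -2.42 in a limma fit without the filter (unadjusted p = 0.00478, adjusted 0.999). Its alpha7-deficient means, 5.38 when young and 3.65 when aged, lay under the testing level. Without the 2 high arrays Gh differed by -1.74, Prl by -1.03, Pomc by -0.37, Lhb by -0.15 and Tshb by -0.11, and without the 4 arrays highest in Gh by -1.25, -0.92, -0.23, 0.029 and -0.078. The arrays left out were chosen by these same values, so the differences without them are descriptions. With Xist as a covariate Gh differed by -3.20, Prl by -2.23 and Pomc by -1.03. No gene of the 16 lists was called for genotype at either age or averaged.

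**Figure D5:**
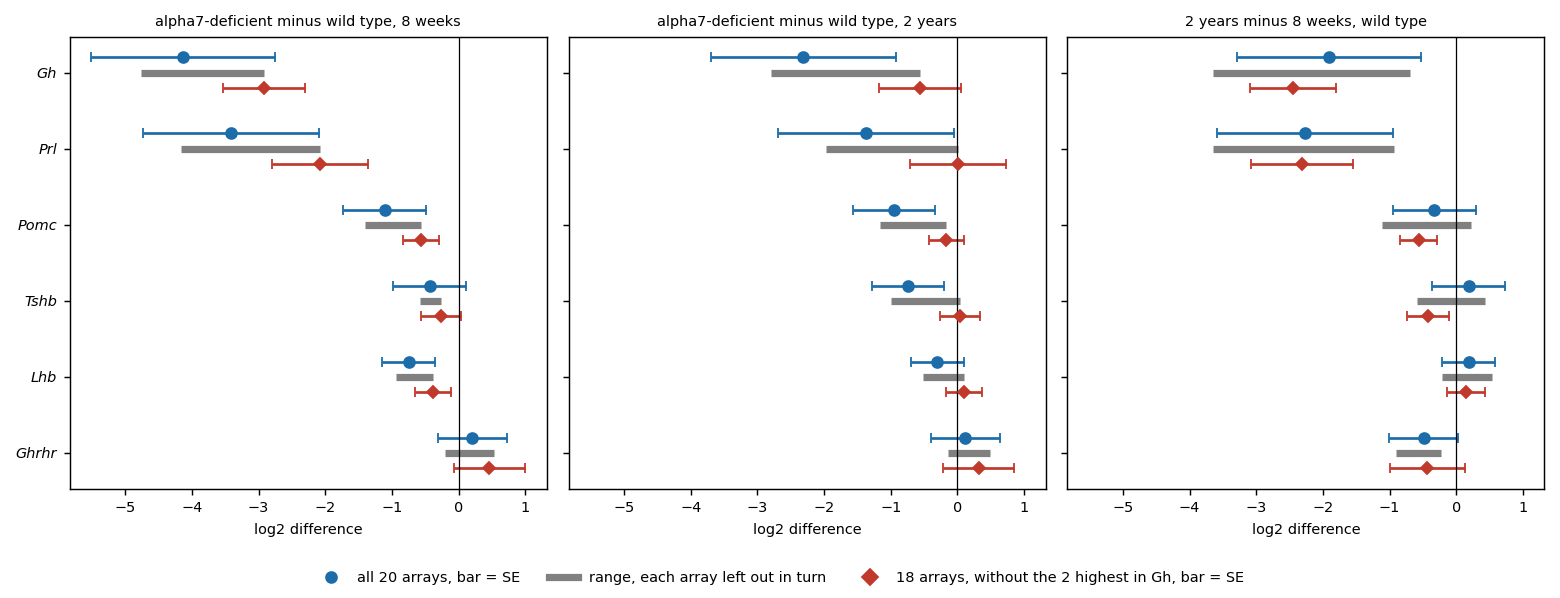
Log2 differences (horizontal axis) of the 6 tested members for genotype at 8 weeks, genotype at 2 years and age in wild type. Blue points are the fit to 20 arrays and red diamonds the fit without the 2 arrays highest in Gh, both with limma's SE, and grey bars give the range when each array is left out in turn. At 2 years the red points for Prl, Tshb and Lhb lie just above 0 and that for Gh at -0.56.

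Age effects of the hormones depended on which of the 2 arrays was present. In wild-type mice Gh differed by -1.91 at 2 years against 8 weeks (SE 1.38, limma adjusted p = 0.588, exact p = 0.405). The difference was -3.65 without aged wild-type replicate 3, -0.70 without young wild-type replicate 1 and -2.45 without both. Prl differed by -2.27 (SE 1.32), with -3.65, -0.93 and -2.31 in the same order. Pomc, Lhb and Tshb differed by -0.33, 0.18 and 0.18, and each turned sign when 1 of the 2 arrays was left out. By the probe set that stood for each gene limma called 0 of 6 members, against 0.769% of all genes. An unadjusted p under 0.05 was held by 0 of them and by 12.8% of all genes. The other Gh probe sets, fitted in limma without the filter, differed by -3.90 (1437522_x_at, unadjusted p = 0.0488, adjusted 0.513), -3.71 (1460613_x_at, unadjusted p = 0.0505) and -2.53 (1456595_x_at, unadjusted p = 0.125). The first 2 had means under the testing level, at 3.55 and 5.07, so their differences are descriptions.

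In alpha7-deficient mice, which hold neither high array, the age differences of the 6 tested members ran from -0.58 for Ghrhr to 0.63 for Lhb. Gh differed by -0.089, Prl by -0.23, Pomc by -0.17, Tshb by -0.12 and Ghrhr by -0.58, with limma adjusted p-values from 0.477 to 0.974. Lhb was 0.63 higher at 2 years (SE 0.397, limma adjusted p = 0.294, exact p = 0.0238). Its values were 4.82 to 5.90 at 8 weeks and 5.69 to 6.44 at 2 years, close to the testing level. Fshb differed by -1.16 (exact p = 0.0159) at signals under that level. The members called were 0 of 6, against 14.7% of all genes, and 0 had an unadjusted p under 0.05, against 30.6%.

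Averaged over genotypes, age called 17.5% of genes and 0 of 6 members in limma, with 0 members and 32.1% of genes at an unadjusted p under 0.05. Gh differed by -0.998 (SE 0.977, adjusted p = 0.516), Prl by -1.25 and Lhb by 0.41. The other Gh probe sets, fitted in limma without the filter, differed by -2.21 (1437522_x_at), -1.94 (1460613_x_at) and -1.07 (1456595_x_at), with unadjusted p = 0.109, 0.140 and 0.349. The second Pomc probe set differed by -1.74 in a limma fit without the filter (unadjusted p = 0.0341, adjusted 0.186). Its alpha7-deficient means, 5.38 when young and 3.65 when aged, lay under the testing level. Gh differed by -1.27 without the 2 high arrays and by -0.77 without the 4 arrays highest in Gh, values with no test, since the arrays were left out for their Gh level. The difference between the age effects of the genotypes was 1.82 for Gh (SE 1.95) and 2.04 for Prl (SE 1.86), and called 0 members and 0.0% of genes, with 8.01% of genes and 0 members at an unadjusted p under 0.05. Genes called for age were found in the hypothalamic and secretory lists. Of 10 tested hypothalamic releasing factors and neuropeptides 4 rose and 1 fell averaged over genotypes, among them Avp (vasopressin, by 1.62, SE 0.159, adjusted p = 1.05e-06), Th (the dopamine synthesis enzyme, by 0.57, SE 0.112) and Tac2 (neurokinin B, by 0.38, SE 0.088), and Crh fell by 0.49 (SE 0.155, adjusted p = 0.0311). Of 9 prohormone processing and granule genes 3 rose, namely Pcsk1n, an inhibitor of prohormone convertase (by 0.55, SE 0.107), Cpe, a carboxypeptidase that trims prohormones (by 0.21) and Scg5 (by 0.16). Of 9 other pituitary cell markers 1 rose and 1 fell, and of 6 posterior pituitary and pituicyte markers 2 rose and 1 fell. Called genes were also found among the blood, meninges, olfactory bulb, choroid plexus and hypothalamic region markers. None of the 5 pituitary transcription factors or 6 receptors tested was called.

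The members were also among the genes that varied most within groups. By the residual SD of the 4 group means Gh ranked 1 (SD 2.57) and Prl 2 (SD 2.44) of 13389 genes, Pomc 21, Tshb 63, Ghrhr 117 and Lhb 469, beside a median SD of 0.225 over all genes. Without the 2 high arrays Gh ranked 44, Prl 11, Pomc 1501, Tshb 1502 and Lhb 2341, while Ghrhr stayed at 139. For Gh most of these 18 signals lay under the testing level, so that its SD of 1.04 there holds scatter of signals not shown to be above background.

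Over all genes the calls for genotype stayed the same without the 2 arrays, and those for age in wild type moved. Without them each genotype comparison still called Chrna7, the targeted gene, and nothing else. The genes called for age averaged over genotypes went from 2348 to 2367, with 2015 shared, which is 85.8% of the first and 85.1% of the second. For age in wild-type mice they went from 103 to 151, with 81 shared, or 78.6% and 53.6%. Leaving out young wild-type replicate 1 alone gave 244, and leaving out the 4 arrays highest in Gh gave 487, of which 73 were among the 103. The count also moved with arrays not chosen for Gh, to 45 without aged wild-type replicate 5 and to 250 without the 3 animals with distant numbers. Those 3 include young wild-type replicate 5, which is also among the 4 arrays highest in Gh. With Gh as a covariate the count was 98. For age in alpha7-deficient mice, where the 2 arrays act only through the pooled spread, it went from 1967 to 1881. Without the 4 arrays the genotype comparison at 8 weeks also called Gstm3, a glutathione transferase, higher by 1.79 (adjusted p = 0.00325), and D630039A03Rik, higher by 2.16 (adjusted p = 0.0304). Without young wild-type replicate 1 it also called Dusp1, a phosphatase induced by stress and activity, higher by 1.32 (adjusted p = 0.0435). These 3 genes were named after their values were seen.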

How the data were processed

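RNA of 20 whole brains was extracted with TRI Reagent and RNeasy columns and measured on 1 Affymetrix array each, per the labels' protocols. The authors deposited a linear signal intensity for each probe set, and the submitters' processing notes name MAS5, with no version or scaling target. Trimmed by 2% on each side, all arrays had a mean signal of 250. Labels gave genotype and age, and accession order the replicate numbers.

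Signals were log2-transformed with no constant. Control probe sets and those with several symbols or none stayed out of the tests. Probe sets from the 40th percentile of mean log2 were kept, the highest standing for its gene. limma 3.58.1 (R 4.3.3) fitted 4 group means with a trended eBayes, adjusting by Benjamini-Hochberg over 13389 genes and calling genes with an adjusted p under 0.05. The fit was tested on simulated data. Single members were tested by exact permutation (5 against 5) or 100000 resamples (10 against 10), two-sided. Members, lists and tests were chosen with earlier results of these data known. Named genes were every member, the 12 genes most like Gh, the 6 most like Pomc and up to 3 called genes of the hypothalamic and secretory lists. Motifs other than TATNCAT, and upstream sequences other than those of Gh, Prl and Tshb, were added later. Alternatives were quantile normalization, a floor on low signals, other filters, all probe sets, robust eBayes, covariates (Gh, Xist, the members' mean), each array left out, and the 3 animals with distant numbers left out. Leaving out the 2 or 4 arrays highest in Gh was added after the data were seen. The number of arrays limits the precision.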

Additional observations from a re-analysis of the deposited data

Results flagged for a closer look

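Within groups of 5, Dixon's test marked 9 of 32 combinations of member and group. A single combination is marked by chance about 1 time in 20. The members were raised together on the same arrays, so the 32 are not separate tests and their count is not read against that rate. In 5 of the marked combinations aged wild-type replicate 3 lay far above the other aged wild-type brains among the tested members. They were Gh at 13.83 against a next highest of 5.19, Prl at 11.86 against 6.01, Pomc at 11.40 against 7.61, Lhb at 7.91 against 6.15 and Tshb at 9.56 against 5.89. Cga stood out on the same array at 11.37 against 3.96, and on young wild-type replicate 1 at 10.36 against 4.56. Gh, Prl and Pomc on young wild-type replicate 1 were not marked, where replicate 3 of that group was raised as well. In the alpha7-deficient groups Pomc was 7.99 on aged replicate 1 against 7.20 on the next array, and Fshb was 4.09 on young replicate 1 against 2.60, the latter at signals not shown to be above background.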

How the results depend on the processing

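No paired analysis was possible because the labels give no replicate numbers that link animals of different groups. No alternative that was planned changed the number of members called in any comparison. Without the 2 arrays highest in Gh the count for age averaged over genotypes was 1 (Gh). It is no test, since the arrays were chosen by Gh and its mean over the other 18 lay under the testing level. In that setting Tshb turned to -0.27 for age averaged, -0.42 for age in wild type, 0.036 for genotype at 2 years and 0.30 for the difference between age effects, and at 2 years Prl turned to 0.012 and Lhb to 0.10. Without the 4 arrays highest in Gh the same 6 values were -0.24, -0.35, 0.036, 0.23, 0.012 and 0.10, Lhb turned to 0.029 for genotype averaged and Ghrhr to 0.19 for the difference between age effects. Calls over all genes were then 487 for age in wild type, 3 for genotype at 8 weeks and 1 for the difference between age effects. Without the 3 animals with distant numbers, calls were 250 for age in wild type, 1059 for age in alpha7-deficient mice and 2 for genotype at 2 years. Tshb then turned to -0.019 for age averaged, Gh to 0.031 for age in alpha7-deficient mice, and Ghrhr to -0.25, -0.21 and -0.29 for genotype averaged, at 8 weeks and at 2 years. For age in alpha7-deficient mice Gh was 0.050 after quantile normalization, Prl 0.12 with Xist as a covariate and Tshb 0.024 with low signals floored. Ghrhr for the difference between age effects was 0.059 after quantile normalization, 0.16 with low signals floored and 0.19 with Xist as a covariate. With no filter the difference between age effects called 1 gene. With group means kept, r over 18 arrays was 0.74 for Gh with Prl and 0.64 for Gh with Pomc. Leaving out 1 array at a time, calls ranged from 45 to 244 for age in wild type and from 1117 to 2378 for age in alpha7-deficient mice, and from 1 to 2 for genotype at 8 weeks and at 2 years. The 45 came without aged wild-type replicate 5, the 1117 without aged alpha7-deficient replicate 1. Member differences that turned sign for at least 1 array left out were Pomc (-0.64 to 0.024) and Tshb (-0.36 to 0.16) for age averaged, and Pomc (-1.11 to 0.22), Lhb (-0.21 to 0.54) and Tshb (-0.59 to 0.44) for age in wild type. For age in alpha7-deficient mice they were Gh (-0.47 to 0.33), Prl (-0.68 to 0.16) and Tshb (-0.28 to 0.14). For genotype they were Ghrhr averaged (-0.045 to 0.35) and at 8 weeks (-0.21 to 0.53), and at 2 years Prl (-1.97 to 0.012), Lhb (-0.52 to 0.10), Tshb (-0.99 to 0.036) and Ghrhr (-0.15 to 0.49). For the difference between age effects they were Pomc (-0.38 to 0.94), Tshb (-0.56 to 0.47) and Ghrhr (-0.42 to 0.33). The cause was not tested.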
